A study of Nicotiana plumbaginifolia and Nicotiana benthamiana and Nicotiana rustica with 81 samples.

Results

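Sucrose is the main sugar that floral nectaries handle, and the transcripts of the enzymes that build and split it are described here across the nectaries of the tobacco genus. They were taken by name: a transcript belongs to the set when its description in the deposited table contains sucrose-phosphate synthase, sucrose-phosphatase, sucrose synthase, beta-fructofuranosidase, invertase, fructokinase, hexokinase or trehalose. This gave 131 of 38230 transcripts, whose best Arabidopsis matches in the table cover 45 loci. By enzyme they are 8 sucrose-phosphate synthases, 4 sucrose-phosphatases, 17 sucrose synthases, 5 cell wall invertases, 2 vacuolar invertases, 16 alkaline or neutral invertases, 5 invertase inhibitors, 10 hexokinases, 7 fructokinases, 7 trehalose-phosphate synthases of class I, 21 of class II and 14 trehalose-phosphate phosphatases. The letters of the names also caught 10 phosphofructokinases, 3 fructokinase-like plastid proteins and 2 ketohexokinases. These are not enzymes of sucrose or trehalose and are kept apart as classes of their own, but they are included in all counts of members.

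As background, sucrose-phosphate synthase joins UDP-glucose and fructose 6-phosphate, and sucrose-phosphatase then frees sucrose. Sucrose synthase and the invertases split it again: sucrose synthase in the cytosol in a reversible reaction, cell wall invertase outside the cell, where it sets the balance of sucrose and hexoses in nectar, vacuolar invertase in the vacuole and the neutral invertases in cytosol, plastids and mitochondria. Hexokinase and fructokinase phosphorylate the products, and trehalose 6-phosphate, made by trehalose-phosphate synthase and removed by its phosphatase, is a signal of sucrose supply in plants. In Arabidopsis, sucrose-phosphate synthases, the exporter SWEET9 and the cell wall invertase CWINV4 are needed for nectar secretion.

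The study sequenced RNA of hand-dissected floral nectaries of N. benthamiana, N. rustica, N. glauca, N. plumbaginifolia, N. bonariensis and N. clevelandii, with no treatment or mutant among the groups. Nectaries were taken at stage 6 (immature), stage 9 (before secretion), stage 12 (anthesis) and a post secretory stage, which the protocol calls post-fertilization. Another 3 groups are leaf, ovary and sepal, all from N. plumbaginifolia. By the labels each of the 27 groups has 3 libraries, 81 in all. The labels do not say if these are separate plants, so the spread between them may be technical.

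The deposited table holds normalized counts only as a mean and an SD of the 3 libraries of each group, as the authors computed them, and no value per library, so the depth of each value is unknown. Reads of all species were set against N. tabacum transcripts, and N. tabacum carries paired gene copies from its 2 parent species. For every transcript the N. clevelandii values are those of N. bonariensis. They were used once, under the name joint profile, and the nectary data thus hold 5 profiles with 20 means. The column sums lie between 7824385 and 12430503 apart from 1 transcript that is no member, XM_016598866.1, with a mean of 7143395 (SD 4531179) in stage 9 of N. plumbaginifolia. The median SD over mean was 0.254 in post secretory N. rustica, 0.217 in stage 12 N. glauca and 0.302 in the post secretory joint profile, and at most 0.142 in the other nectary groups. Values are not divided by transcript length, so levels are compared between groups and not between genes.

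Different transcripts stood for the same enzyme in different species. Of the 131 members, 30 were listed at 0 in all 4 stages of N. benthamiana (22.9%, against 27% of all transcripts), 42 for N. rustica (32.1% against 33.1%), 41 for N. glauca (31.3% against 29.5%), 41 for N. plumbaginifolia (31.3% against 37.3%) and 22 for the joint profile (16.8% against 18.9%). A mean of at least 10 over the 4 stages was reached in all 5 profiles by 26 members, or 19.8%, against 23.3% of all transcripts. In N. rustica the means of a hexokinase transcript (AF118133.1) were 1467 at stage 6, 1880 at stage 9, 1221 at stage 12 and 288 after secretion, and at most 7 in every other nectary group. The vacuolar invertase AJ305044.2 stood between 615 and 1124 for N. rustica and at most 67 elsewhere in nectaries, while its relative XM_016634894.1 stood at most at 6 for N. rustica and between 175 and 4436 in the other profiles. A probable sucrose-phosphate synthase 2 transcript (XM_016600877.1) ran from 728 to 1372 in N. plumbaginifolia nectaries and at most 4 in the other profiles. XM_016607051.1 of the same Arabidopsis locus was read in those profiles. In N. glauca XM_016600875.1, another variant of the gene of XM_016600877.1, stood above it, with 316 against 238 at stage 12. For this reason each comparison is given for single transcripts and for sums over all transcripts of an Arabidopsis locus.

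The stage effects shared by the genus were tested with limma on log2(mean + 1), taking the 5 profiles as replicates and calling a Benjamini-Hochberg adjusted p under 0.05. All log2 changes below are on that scale. A profile in which a member is listed at 0 at both stages enters the estimate as no change, so the estimate is then smaller in size than the mean of the profiles that measure the member. Of the 131 members, 129 averaged 10 or more across the nectary groups and were tested. The other 2 were a sucrose synthase (XM_016595403.1), listed with a mean of 2 in nectaries and 878 in sepal, and a cell wall invertase (XM_016612843.1), listed at 0 in every nectary group and at 100 in leaf. Between stage 9 and stage 6, and between stage 12 and stage 9, limma called no member (background 0% in each direction). At an unadjusted p under 0.05, 5 members were up and 4 down in the first of these steps, and 9 up and 2 down in the second. Of all 36627 transcripts tested, 1597 were up and 1393 down in the first, and 1238 up and 538 down in the second. On locus sums limma called none in either step, where 0.0162% of all loci rose between stage 12 and stage 9.

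Between stage 12 and stage 6, 1 of 129 members rose and none fell, where 0.478% of all transcripts tested rose and 0.36% fell. At an unadjusted p under 0.05, 17 members were higher and 4 lower, where 3857 of all 36627 transcripts tested were higher and 2279 lower. The member that rose was the probable trehalose-phosphate phosphatase H (XM_016580350.1). On locus sums 4 of 45 rose and 2 fell, against 5.64% and 5.39% of the 12367 loci tested. The median log2 change was 0.17 over the members and 0.08 over all transcripts. The share of member loci called was near that of all loci in this step. Without N. rustica no member transcript was called, where 0% of all transcripts rose and 0.0113% fell. The rise of AT2G22190 was called without any 1 profile, and that of AT4G02280 was lost without N. benthamiana. That of AT5G22510 was lost without N. glauca or N. rustica, and that of AT3G52600 without either of these or the joint profile. So 2 to 4 member loci rose, where 1.6% to 4.4% of all loci did. Of the 2 loci that fell, AT4G28706 was lost without any of the 5 and AT3G54090 without N. glauca, N. plumbaginifolia or N. rustica. Both are of the classes kept apart, a ketohexokinase and a fructokinase-like plastid protein locus.

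After secretion more members were lower than higher. Between the post secretory stage and stage 12, 6 of 129 members fell and none rose, against 0.554% and 0.232% of all transcripts tested. At an unadjusted p under 0.05, 30 members were lower and 7 higher, where 3313 of all 36627 transcripts tested were lower and 2642 higher. On locus sums 9 of 45 fell and 2 rose, against 6.56% and 4.84% of all loci. The median log2 change was -0.22 over the members and -0.04 over all transcripts, and -0.24 over the member loci and -0.05 over all loci. The 6 transcripts that fell were a cell wall invertase, a sucrose synthase, a sucrose-phosphate synthase, a sucrose-phosphatase and 2 hexokinases, so that synthesis, cleavage and hexose phosphorylation each had a member among them. The count of 6 became 0 without N. rustica or the joint profile and 1, the sucrose synthase, without N. benthamiana or N. glauca. In these settings, in that order, 0.0821%, 0.00578%, 0.0768% and 0.0705% of all transcripts fell. Of the 9 loci, AT2G36190, AT3G43190 and AT4G29130 fell without any 1 profile, AT2G35840 was lost without N. glauca, and the other 5 and both that rose were lost without N. benthamiana, N. rustica, N. glauca or the joint profile. Without N. plumbaginifolia 7 transcripts and 9 loci fell, where 1.27% of all transcripts and 8.98% of all loci did. Without 1 of the other profiles 1.21% to 2.24% of all loci fell. Without the 3 groups of widest spread, which leaves N. benthamiana and N. plumbaginifolia alone with both stages, no transcript and no locus was called, where 0.00275% of all transcripts and 0.0243% of all loci fell.

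**Figure D1:**
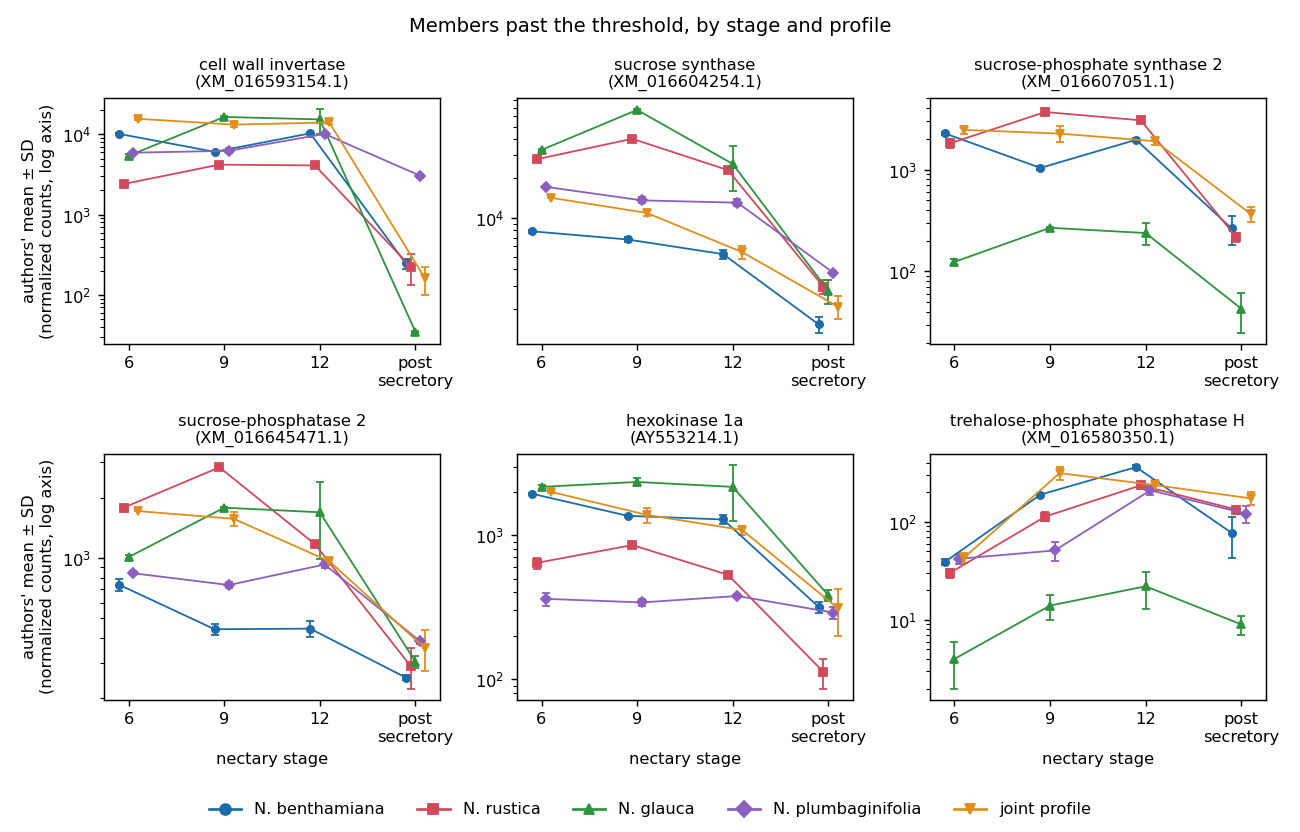
Authors' mean normalized count (log axis, error bars: the authors' SD over 3 libraries) of 6 of the 7 members past the threshold, at stages 6, 9, 12 and post secretory, with a line for each of the 5 profiles. XM_016607051.1 is listed at 0 throughout N. plumbaginifolia and is not drawn there. The first 5 panels are lower after secretion than at stage 12 in every line drawn, and the phosphatase of the sixth panel is higher at stage 12 than at stage 6 in all 5.

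Cell wall invertase had the largest change after secretion among all members. The transcript XM_016593154.1, described as an insoluble isoenzyme 1-like beta-fructofuranosidase and matched to the Arabidopsis locus AT2G36190, which encodes CWINV4, had post secretory means of 247 (SD 34) in N. benthamiana, 226 (SD 94) in N. rustica, 35 (SD 1) in N. glauca, 3056 (SD 169) in N. plumbaginifolia and 162 (SD 61) in the joint profile. At stage 12 it had 10292 (SD 269), 4101 (SD 139), 15334 (SD 5274), 10114 (SD 200) and 14047 (SD 502) in the same profiles. At stages 6 and 9 its means lay between 2411 and 16465. Every post secretory mean lay below every mean of the other stages, except that the N. plumbaginifolia value exceeded stage 6 of N. rustica. The N. plumbaginifolia mean stayed highest after secretion. Its change over the 5 profiles was -5.29 (SE 0.80, limma adjusted p = 0.0074, lower in 5 of 5 profiles), and the sum over the locus changed by -4.83 (SE 0.72, limma adjusted p = 0.002). By profile the locus sum changed by -5.26 for N. benthamiana, -3.70 for N. rustica, -8.08 for N. glauca, -1.73 for N. plumbaginifolia and -5.39 for the joint profile. Whether N. plumbaginifolia differs from the other profiles in this was not tested.

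Of the other cell wall invertase transcripts none passed the test after secretion. The apoplastic invertase KF308284.1 of the same locus was lower after secretion in 5 of 5 profiles but missed the threshold (-3.01, SE 0.67, limma adjusted p = 0.055). XM_016593286.1, matched to CWINV2 (AT3G52600), had means at stages 6, 9, 12 and post secretory of 105, 65, 236 and 49 for N. benthamiana, of 16, 153, 483 and 224 for N. rustica and of 5, 21, 116 and 16 for N. glauca. It peaked at stage 12 in these 3 profiles, was listed at 0 in all 4 N. plumbaginifolia stages and reached at most 21 in the joint profile. As a locus it rose between stage 12 and stage 6 by 2.75 (SE 0.70, limma adjusted p = 0.025, N. plumbaginifolia entering as no change), while as a transcript, with the same values among more tests, it had an adjusted p of 0.08. The joint profile entered with 3.46, from values near the floor, 0 at stage 6 and 10 at stage 12. A CWINV3-like transcript (XM_016653243.1) stood between 55 and 372 in N. plumbaginifolia and the joint profile and at most at 40 elsewhere. It passed no test, with 0.29 (SE 0.65, limma adjusted p = 0.85) after secretion.

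Among sucrose synthases, 1 locus fell and another rose after secretion, and another had risen by stage 12. XM_016604254.1, matched to SUS4 (AT3G43190), had post secretory means of 1512 (SD 205) in N. benthamiana, 2938 (SD 353) in N. rustica, 2741 (SD 563) in N. glauca, 3780 (SD 107) in N. plumbaginifolia and 2071 (SD 419) in the joint profile. At stage 12 these profiles had 5240 (SD 431), 23148 (SD 823), 25832 (SD 9920), 13010 (SD 811) and 5428 (SD 611). At stages 6 and 9 the means ran from 6791 to 67116. All 5 profiles were lowest after secretion, and the post secretory range did not overlap that of any earlier stage. The transcript fell by 2.24 on the log2 scale (SE 0.31, limma adjusted p = 0.005) and its locus by 1.77 (SE 0.31, limma adjusted p = 0.0054). The transcript was already lower at stage 12 than at stage 6 in 5 of 5 profiles, by an estimate that did not pass (-0.60, SE 0.31, limma adjusted p = 0.35). Its highest mean was 67116 (SD 952) at stage 9 of N. glauca. Transcripts of this locus did not all move alike after secretion. KF977579.1 was also lower in N. rustica, N. glauca and the joint profile. XM_016595402.1 was higher, with 960 against 352 at stage 12 in N. benthamiana and 2333 against 1642 in N. glauca. It had 183 against 78 in N. plumbaginifolia and 814 against 518 in the joint profile. XM_016610901.1 had 974 against 192 in N. rustica.

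The locus of SUS3 (AT4G02280) had sums at stages 6, 9, 12 and post secretory of 273, 638, 1338 and 815 for N. benthamiana, of 320, 518, 778 and 1768 for N. rustica and of 3440, 3652, 8466 and 3316 for N. glauca. In N. plumbaginifolia the sums were 501, 539, 1113 and 1061, and in the joint profile 769, 1346, 1454 and 1803. Each of the 5 profiles was higher at each step up to stage 12, and the locus rose by 1.39 between stage 12 and stage 6 (SE 0.29, limma adjusted p = 0.012). Without N. benthamiana that adjusted p became 0.053. After secretion it had -0.13 (limma adjusted p = 0.82). The locus of SUS1 (AT5G20830) had post secretory sums of 533 for N. benthamiana, 1066 for N. rustica, 439 for N. glauca and 960 for the joint profile, against 100, 381, 4 and 69 at stage 12 in the same order. It was higher in all 4 of these profiles and listed at 0 in N. plumbaginifolia nectaries, and rose by 2.82 (SE 0.68, limma adjusted p = 0.02), with N. plumbaginifolia entering as no change. This call was lost when any of the 4 profiles was left out. The reads of close copies can be split differently between loci, and no single SUS1 transcript passed the test (XM_016627888.1 had 2.42, SE 0.75, limma adjusted p = 0.14).

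**Figure D2:**
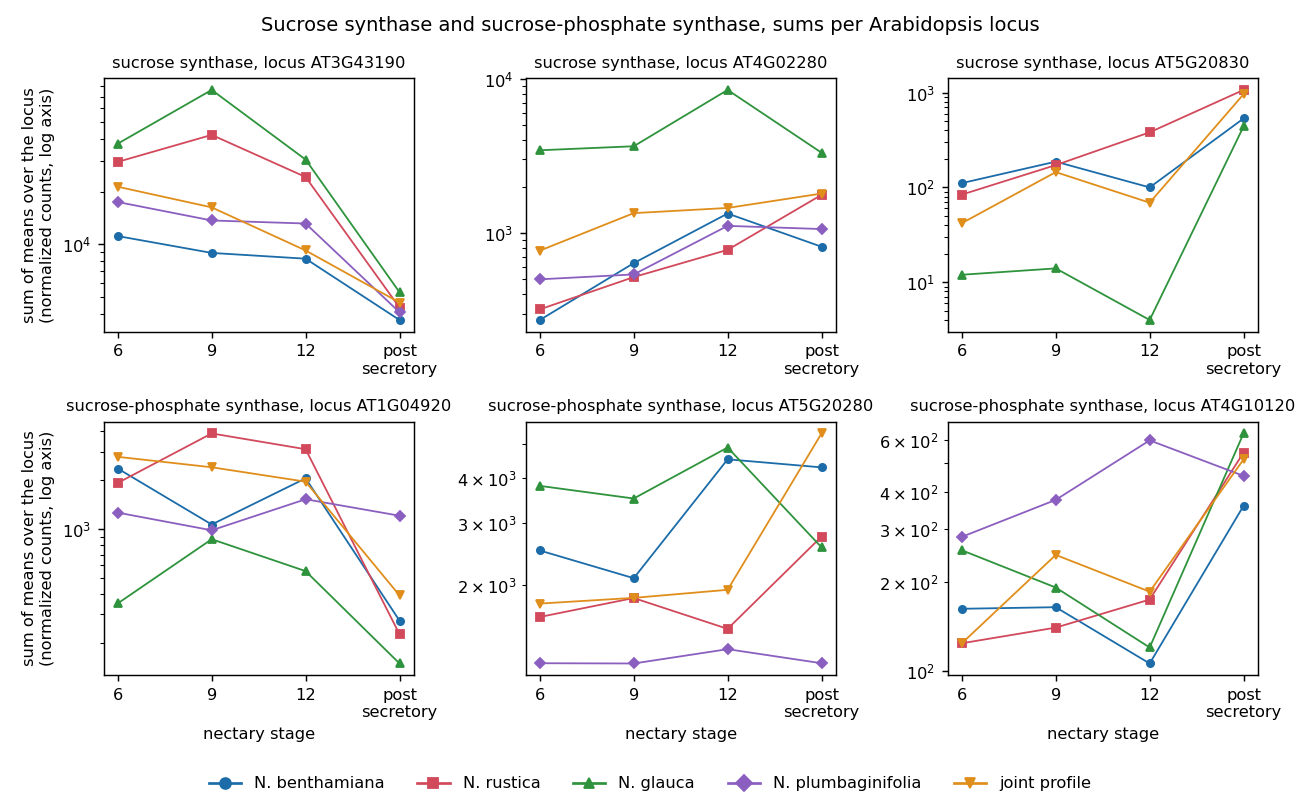
Sums of the authors' means over all transcripts of an Arabidopsis locus (log axis) at the 4 nectary stages, for 3 sucrose synthase loci in the upper row and 3 sucrose-phosphate synthase loci in the lower row, with a line for each profile. AT3G43190 and AT1G04920 are lower after secretion than at stage 12 in all 5 profiles, AT5G20830 is higher in the 4 profiles that show it, and AT4G10120 is higher in 4 of 5.

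Sucrose-phosphate synthase, the enzyme that commits carbon to sucrose, had 1 locus that fell and 1 that rose after secretion. XM_016607051.1, a probable sucrose-phosphate synthase 2 matched to AT1G04920, had post secretory means of 264 (SD 84) in N. benthamiana, 216 (SD 21) in N. rustica, 43 (SD 18) in N. glauca and 366 (SD 63) in the joint profile. At stage 12 it had 1961 (SD 61), 3045 (SD 143), 238 (SD 58) and 1897 (SD 148) there, and it was listed at 0 in N. plumbaginifolia nectaries. At stages 6 and 9 these 4 profiles lay between 124 and 3677. All 4 were lower after secretion than at stage 12, and the transcript fell by 2.30 on the log2 scale (SE 0.46, limma adjusted p = 0.036), an estimate that holds the 0 of N. plumbaginifolia beside changes of -2.37 to -3.81 in the other profiles. The sum over AT1G04920 fell by 2.24 (SE 0.46, limma adjusted p = 0.011). Its change in N. plumbaginifolia was -0.34, with 1213 after secretion and 1531 at stage 12, against -1.88 to -3.77 in the other 4 profiles.

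The locus AT4G10120, matched by a probable sucrose-phosphate synthase 4 and by the tobacco isoform C, rose. Its sums after secretion were 360 for N. benthamiana, 544 for N. rustica, 631 for N. glauca, 454 for N. plumbaginifolia and 516 for the joint profile, against 106, 174, 120, 598 and 185 at stage 12 in the same order. Only N. plumbaginifolia was lower, and the change over the 5 profiles was 1.37 (SE 0.31, limma adjusted p = 0.016). The call was lost without N. benthamiana, N. rustica, N. glauca or the joint profile. AT5G20280, the locus of the transcripts named only probable sucrose-phosphate synthase, had sums between 1198 and 5362 in all nectary groups and 0.24 (SE 0.28, limma adjusted p = 0.62) after secretion. This locus sum holds 1 transcript besides its 3 members. The most abundant of these, XM_016579794.1, was higher at stage 12 than at stage 6 in 5 of 5 profiles without passing, and after secretion it had 578 (SD 545) in N. rustica, 2194 (SD 449) in N. glauca and 2558 (SD 1689) in the joint profile, against 199 (SD 17), 4265 (SD 1463) and 1143 (SD 188) at stage 12. These SDs are wide, and the estimate was 0.35 (SE 0.30, limma adjusted p = 0.58). The sum over all 8 sucrose-phosphate synthases moved by -0.36 ± 0.30 (SD, n = 5 profiles) after secretion and by 0.25 ± 0.26 between stage 12 and stage 6.

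Sucrose-phosphatase 2 (XM_016645471.1, locus AT2G35840), which takes the phosphate off the product of the synthase, had post secretory means of 254 (SD 8) in N. benthamiana, 290 (SD 66) in N. rustica, 385 (SD 11) in N. plumbaginifolia and 356 (SD 83) in the joint profile, with N. glauca between these bounds. At stage 12 it had 445 (SD 39) in N. benthamiana, 1172 (SD 7) in N. rustica, 929 (SD 34) in N. plumbaginifolia, 964 (SD 17) in the joint profile and 1691 (SD 704) in N. glauca, and at stages 6 and 9 from 442 to 2832. The post secretory values lay close together and all below stage 12. The transcript fell by 1.60 (SE 0.31, limma adjusted p = 0.03) and the sum of all 4 sucrose-phosphatases, which share the locus, by 1.19 (SE 0.24, limma adjusted p = 0.0092). Between stage 12 and stage 6 the locus had -0.34 (SE 0.24, limma adjusted p = 0.36), higher in 2 profiles and lower in 3.

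The vacuolar invertases were lower after secretion in 3 profiles and higher in 2. The sum of both transcripts was 183 after secretion and 3488 at stage 12 for N. benthamiana, 291 and 2642 for N. glauca, and 538 and 1009 for N. plumbaginifolia. In N. rustica it was 1127 after secretion and 725 at stage 12, and in the joint profile 1312 and 1284. N. benthamiana and N. glauca were many-fold lower, with log2 changes of -4.25 and -3.18, and the locus did not pass (-1.53, SE 0.61, limma adjusted p = 0.11). Whether the profiles differ was not tested.

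Among the neutral invertases the plastid-type locus AT5G22510 was higher at stage 12 than before and lower after it. Its sums at stages 6, 9, 12 and post secretory were 1018, 1031, 1917 and 783 for N. benthamiana, 652, 1000, 1548 and 649 for N. rustica and 689, 820, 1252 and 754 for N. glauca. They were 388, 319, 538 and 533 in N. plumbaginifolia and 1045, 1093, 1313 and 864 in the joint profile. It rose by 0.76 between stage 12 and stage 6 (SE 0.18, limma adjusted p = 0.017) and fell by 0.78 after secretion (SE 0.18, limma adjusted p = 0.016), in 5 of 5 profiles each time, although the N. plumbaginifolia sums of the last step were nearly equal. The locus AT4G09510 fell by 0.72 after secretion (SE 0.19, limma adjusted p = 0.027, lower in 4 of 5). The mitochondrial-type XM_016599311.1 had 349 (SD 10) after secretion and 2527 (SD 220) at stage 12 for N. benthamiana, 163 (SD 14) and 1646 (SD 117) for N. glauca, while the other profiles changed by -0.18 (N. rustica), 0.17 (N. plumbaginifolia) and -0.10 (joint profile) on the log2 scale. It did not pass (-1.26, SE 0.51, limma adjusted p = 0.25). A beta-fructofuranosidase entry, KJ808727.1, matches the neutral invertase locus AT4G34860 and was counted there, and that locus had -0.27 (limma adjusted p = 0.53).

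The 5 invertase inhibitors, small proteins that block acid invertases, have no Arabidopsis match in the table. Their summed means after secretion were 367 for N. benthamiana, 430 for N. rustica, 92 for N. glauca, 89 for N. plumbaginifolia and 794 for the joint profile, against 134, 52, 25, 147 and 145 at stage 12 in the same order. The sum was higher after secretion in the 4 profiles other than N. plumbaginifolia, by 1.61 ± 1.43 over all 5 (SD). No single inhibitor passed the test. The most abundant, XM_016583339.1, had 331 (SD 20) after secretion and 109 (SD 8) at stage 12 in N. benthamiana but 64 (SD 7) and 105 (SD 32) in N. plumbaginifolia, and was listed at 0 in N. rustica and N. glauca (0.23, SE 0.37, limma adjusted p = 0.78). The tobacco inhibitor homologue Y12806.1, for example, had 204 (SD 79) after secretion and 31 (SD 1) at stage 12 for N. rustica, and 222 (SD 62) and 31 (SD 1) for the joint profile, and was listed at 0 for N. benthamiana and N. glauca (1.30, SE 0.62, limma adjusted p = 0.31). The mean of Y12805.1 in the post secretory joint profile, 314, had an SD of 484.

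Hexokinase, which phosphorylates glucose and in Arabidopsis also senses it, fell at 1 locus. Hexokinase 1a (AY553214.1) had post secretory means of 317 (SD 28) in N. benthamiana, 112 (SD 26) in N. rustica, 383 (SD 32) in N. glauca, 290 (SD 27) in N. plumbaginifolia and 311 (SD 112) in the joint profile. Stage 12 had 1286 (SD 87), 531 (SD 20), 2167 (SD 911), 378 (SD 11) and 1086 (SD 77). Stages 6 and 9 lay between 341 and 2345. Each profile was lower after secretion, N. plumbaginifolia least, and the transcript fell by 1.79 (SE 0.31, limma adjusted p = 0.016). Hexokinase-2 (XM_016609530.1) of the same locus, AT4G29130, which encodes the sensor HXK1, had 241 to 483 after secretion, against 568 to 964 at stage 12, and fell by 0.92 (SE 0.19, limma adjusted p = 0.046). With the values rescaled by the median of ratios or without a variance trend it was not called. The locus sum fell by 1.42 (SE 0.25, limma adjusted p = 0.0054). XM_016641793.1, of the locus AT1G47840, was higher after secretion in 5 of 5 profiles with 0.89 (SE 0.22), and missed the threshold (limma adjusted p = 0.08).

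No fructokinase passed in any step. The fructokinase-2-like XM_016643248.1 had means at stages 6, 9, 12 and post secretory of 503, 1541, 1427 and 1800 for N. plumbaginifolia and of 1602, 1344, 1097 and 1519 for N. glauca. It was higher after secretion in 5 of 5 profiles (0.55, SE 0.27, limma adjusted p = 0.33). FRK4 (KJ683759.1) had the largest estimate of all members between stage 12 and stage 9, 1.67 (SE 0.90, limma adjusted p = 0.98), with 145 (SD 10) at stage 12 and 3 (SD 2) at stage 9 in N. rustica.

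Of the trehalose genes 2 phosphatase loci passed the test. The probable trehalose-phosphate phosphatase H (XM_016580350.1, the only transcript of AT2G22190) had means at stages 6, 9, 12 and post secretory of 39, 189, 360 and 77 for N. benthamiana, of 30, 113, 235 and 133 for N. rustica and of 4, 14, 22 and 9 for N. glauca. In N. plumbaginifolia the means were 42, 51, 209 and 121, and in the joint profile 43, 313, 236 and 173. Stage 12 exceeded stage 6 in every profile, by log2 changes between 2.20 and 3.17, and the transcript rose by 2.60 (SE 0.33, limma adjusted p = 0.0059). It also had the largest estimate of all members between stage 9 and stage 6 (1.76, SE 0.33, limma adjusted p = 0.27, higher in 5 of 5). As a locus it passed the test for stage 12 against stage 6 under all 13 alternative settings (adjusted p 9.5e-05 to 0.016), and as a transcript under 12 of 13, with an adjusted p of 0.064 without N. rustica. After secretion the locus fell by 1.09 (SE 0.33, limma adjusted p = 0.048), which 8 of 13 settings lost, while the transcript was not called (limma adjusted p = 0.14).

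The 8 transcripts of AT4G12430, described as phosphatases A-like, F, 2 and NtTPP, had post secretory sums of 267 for N. benthamiana, 637 for N. rustica, 1315 for N. glauca, 1757 for N. plumbaginifolia and 632 for the joint profile, against 2575, 1463, 6976, 2335 and 1186 at stage 12 in the same order. It fell by 1.64 after secretion (SE 0.39, limma adjusted p = 0.019). Between stage 12 and stage 6 it was higher in 5 of 5 profiles but did not pass (1.08, SE 0.39, limma adjusted p = 0.084). Its most abundant transcript, the phosphatase A-like XM_016640347.1, had 151 (SD 3) after secretion and 2061 (SD 114) at stage 12 in N. benthamiana and 1602 (SD 9) and 2156 (SD 71) in N. plumbaginifolia, and was listed at 0 throughout the joint profile (-1.80, SE 0.53, limma adjusted p = 0.13). The sum of all 14 phosphatases was higher at stage 12 than at stage 6 by 1.13 ± 0.51 and lower after secretion by 1.27 ± 0.58 (SD, n = 5), each time in all 5 profiles. No synthase of trehalose 6-phosphate passed. TPS1 (AT1G78580), the catalytically active class I form, had 0.16 (limma adjusted p = 0.57) between stage 12 and stage 6 and -0.15 (limma adjusted p = 0.62) after secretion. Its most abundant transcript, XM_016635436.1, was higher at stage 12 than at stage 6 in 5 of 5 profiles, with 267 (SD 19) against 231 (SD 30) in N. plumbaginifolia and 477 (SD 45) against 339 (SD 32) in N. rustica (0.56, SE 0.19, limma adjusted p = 0.17). None of the 21 class II transcripts, whose proteins are thought to be regulatory, passed in any step. The most abundant of them, XM_016645412.1, had 831 (SD 91) after secretion and 1517 (SD 98) at stage 12 in N. glauca, 878 (SD 35) and 850 (SD 19) in N. benthamiana and 511 (SD 23) and 523 (SD 74) in N. plumbaginifolia, and stood at most at 24 in the other profiles (-0.24, SE 0.24, limma adjusted p = 0.63).

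Of the classes caught by letters, the fructokinase-like plastid protein locus AT3G54090, which in Arabidopsis acts in plastid transcription, fell by 1.45 between stage 12 and stage 6 (SE 0.44, limma adjusted p = 0.049). Its main transcript XM_016616572.1 had 319 (SD 19) at stage 12 and 862 (SD 67) at stage 6 in the joint profile (-1.21, SE 0.46, limma adjusted p = 0.21). The ketohexokinase-like locus AT4G28706, only 2 of whose 6 transcripts are members, fell by 0.72 (SE 0.21, limma adjusted p = 0.039). Its member XM_016615665.1 had -0.54 (SE 0.43) and did not pass. The 4 phosphofructokinase loci passed no test, with estimates from -0.38 to 0.53 after secretion, and the most abundant transcript, XM_016594778.1, had -0.39 (SE 0.16, limma adjusted p = 0.25).

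**Figure D3:**
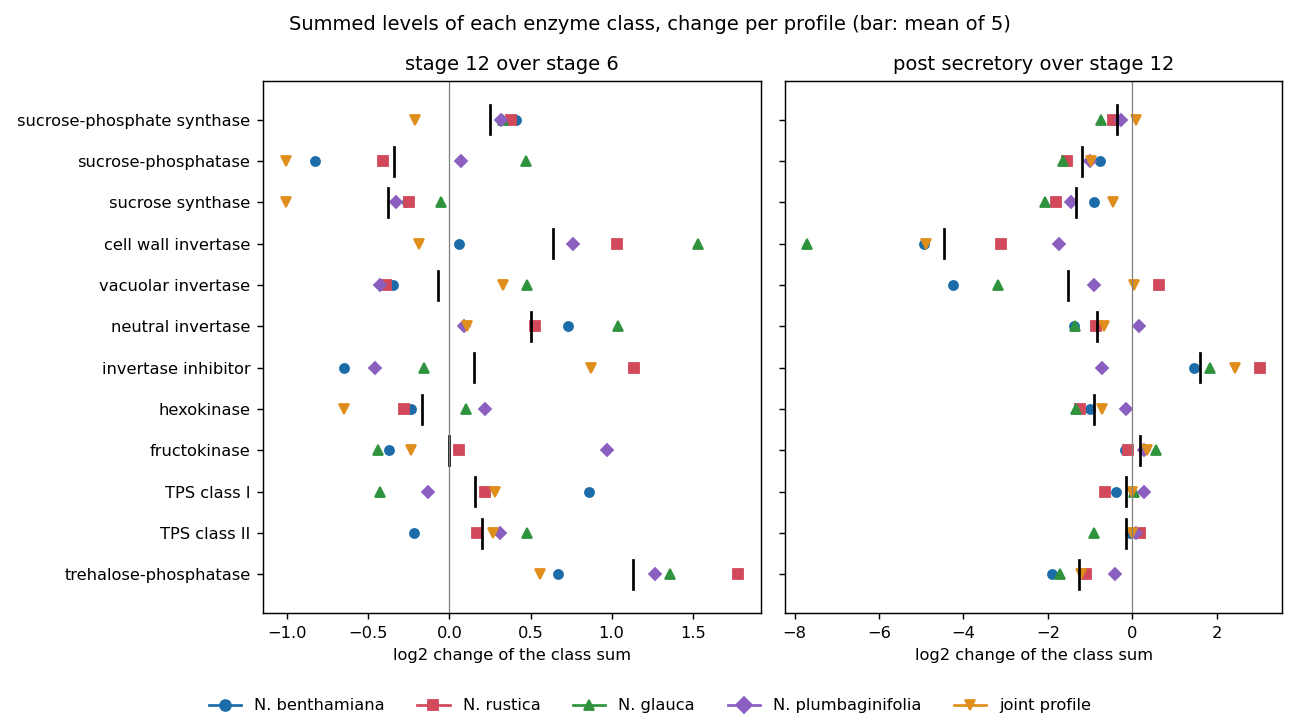
Log2 change of the summed means of each of 12 enzyme classes, stage 12 over stage 6 on the left and post secretory over stage 12 on the right, with a symbol for each profile and a bar at the mean of the 5. On the left trehalose-phosphatase and neutral invertase lie above 0 in all 5 profiles and sucrose synthase below 0 in all 5. The sucrose synthase mean there, -0.38, becomes 0.22 without XM_016604254.1. On the right cell wall invertase, sucrose synthase, sucrose-phosphatase, trehalose-phosphatase and hexokinase lie below 0 in all 5. The sucrose synthase mean of -1.34 becomes -0.07 without XM_016604254.1, 1 of its 17 transcripts, and that of cell wall invertase, -4.47, becomes -2.36 without XM_016593154.1.

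Within single profiles, 2-fold changes of the mean plus 1 were counted where the higher mean was at least 100, with no test. After secretion 98 of 319 pairs of member and profile were 2-fold lower, 30.7%, against 10.7% over all transcripts and 32 were 2-fold higher, against 12.4% over all transcripts. By profile the lower ones were 25 of 73 for N. benthamiana (background 11.1%), 19 of 57 for N. rustica (11.9%), 33 of 65 for N. glauca (16.6%), 5 of 49 for N. plumbaginifolia (3.12%) and 16 of 75 for the joint profile (9.81%). N. plumbaginifolia had the lowest share, for members as for all transcripts. Between stage 12 and stage 6, 55 of 318 pairs were 2-fold higher (11.7% over all transcripts) and 26 lower (9.05%). Between stage 12 and stage 9, 44 of 309 were higher (7.03%) and 19 lower (4.92%), and between stage 9 and stage 6, 24 of 311 were higher (7%) and 22 lower (6.39%).

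The authors' deposited table calls 53 of 131 members different between post secretory and stage 12 nectaries in N. benthamiana (27.7% of all transcripts), 16 of them higher and 37 lower by the means. The authors' deposited table has 31 such members for N. rustica (12.1%), 48 for N. glauca (19.9%), 24 for N. plumbaginifolia (11.5%) and 23 for the joint profile (9.19%). In each profile more of the members called in the authors' deposited table were lower than higher after secretion, from 13 against 11 for N. plumbaginifolia to 40 against 8 for N. glauca. The split of these calls by direction was not counted over all transcripts, so whether it is particular to the members is not known. Between stage 12 and stage 6 the authors' deposited table calls 40 members for N. benthamiana (19.6%), 36 for N. rustica (24.5%), 41 for N. glauca (21.7%), 24 for N. plumbaginifolia (17.9%) and 49 for the joint profile (26.8%).

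Other tissue markers moved in the same step, and their part in the falls was not tested. The summed means of 125 photosynthetic transcripts were 69616 after secretion and 16809 at stage 12 for N. benthamiana, 94469 and 20880 for N. rustica, 62306 and 2499 for N. glauca, 36949 and 14819 for N. plumbaginifolia, and 96590 and 20828 for the joint profile. Every post secretory sum was above its stage 12 sum. Of the 118 tested, 9 rose and 0 fell (limma, median 1.36), among them the chlorophyll a-b binding protein CP29.2 (XM_016621695.1) by 2.62 (SE 0.39, limma adjusted p = 0.007). The summed means of 15 nectary identity transcripts, CRABS CLAW, MYB305, nectarin-1 and NEC1, were 904 after secretion and 92343 at stage 12 for N. benthamiana, 914 and 35033 for N. rustica, 1037 and 64512 for N. glauca, 6103 and 19843 for N. plumbaginifolia, and 988 and 23532 for the joint profile. Every sum was lower after secretion. Of the 14 tested 6 fell, CRABS CLAW (XM_016610040.1), 2 of MYB305, nectarin-1 (XM_016580669.1) and 2 of NEC1, and 1 nectarin-1-like transcript rose (XM_016657282.1; limma, median -3.23). Of 13 ovule markers 1 fell, an AGAMOUS-like transcript (XM_016580095.1), and of 9 vascular and 10 cell division markers none passed in this step, with medians of -0.13, 0.89 and -0.12 for the 3 lists. The summed ovule markers were lower after secretion in all 5 profiles. They had 3300 against 5565 at stage 12 for N. benthamiana, 1613 against 4523 for N. rustica and 3397 against 6742 for N. glauca. N. plumbaginifolia had 3719 against 4916 and the joint profile 2850 against 9866. No marker list summed to 0 in any nectary group. In bulk tissue fewer cells of a type and less RNA per cell cannot be told apart. The ovule identity gene AGL11 stood at least 5-fold above stage 6 of the same species in 6 nectary groups. They were stage 9 of N. benthamiana, stage 9 and post secretory N. plumbaginifolia, post secretory N. glauca, and stages 9 and 12 of the joint profile. Without these groups 7 members fell and 1 rose after secretion, where 0.847% and 0.449% of all transcripts did. On locus sums 8 fell and 2 rose, against 6.23% and 4.57% of all loci.

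Few transcripts of neighbouring steps passed the test. Of 33 sugar exporters of the SWEET or NEC1 list 2 fell after secretion, both NEC1-like and of the SWEET9 locus and both also on the nectary identity list, XM_016615427.1 with a log2 change of -7.01 (SE 1.32, limma adjusted p = 0.027) and XM_016577514.1 with -5.13 (SE 1.00, limma adjusted p = 0.032). Of 9 sucrose transport proteins, 10 hexose transporters, 7 UDP-glucose pyrophosphorylases, 10 phosphoglucomutases and 4 glucose-6-phosphate isomerases tested, which feed and drain the sucrose pool, none passed in any of the 4 steps. Over all transcripts at most 0.554% passed per step and direction, so lists this short can hold none at the background share. Between stage 12 and stage 6 the hexose transporters had a median of 1.37, against 0.08 over all transcripts and -0.5 to 0.28 for the other lists of this group. The SWEET or NEC1 list had 0.61. The most abundant hexose transporter (XM_016638727.1) went the other way, with -0.33 (SE 0.44, limma adjusted p = 0.72). The most abundant of the pyrophosphorylases (XM_016647710.1) had -0.76 between stage 12 and stage 6 (SE 0.31, limma adjusted p = 0.23). The most abundant isomerase (XM_016610657.1), which interconverts the 2 hexose phosphates, had -1.02 after secretion (SE 0.27, limma adjusted p = 0.1). Of 20 beta-amylases, which release maltose from starch, 1 rose between stage 12 and stage 6, XM_016591116.1 by 3.12 (SE 0.62, limma adjusted p = 0.037).

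N. plumbaginifolia allows the nectary to be set beside leaf, ovary and sepal, in 1 species and without a test. Single transcripts could be listed at 0 in whole tissues. Of the 131 members 11 were listed at 0 in all 4 nectary stages and at 100 or more in another tissue, and 5 were at 100 or more in all nectary stages and at 0 in another tissue, against 9.29% and 4.21% of all transcripts. Between the nectary stages of a profile no member did this, in 655 pairs, and 0.0963% of all pairs did. XM_016607051.1, for example, was listed at 0 in nectary, leaf and ovary and at 1621 (SD 49) in sepal, while XM_016600877.1 of its locus had 1372 (SD 65) in stage 12 nectary and 139 (SD 19) in sepal. A further transcript of this locus, XM_016600875.1, had 1404 (SD 159) in ovary and 159 (SD 6) in stage 12 nectary. The sums over the locus, AT1G04920, were 1531 in stage 12 nectary, 957 in leaf, 1485 in ovary and 2175 in sepal. What sets this exchange of transcripts between tissues was not tested, and the tissue results below rest on locus sums, a choice made after these zeros were seen.

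On locus sums, stage 12 nectary was 2-fold higher than leaf at 7 and lower at 5 of 37 member loci (background 11.4% and 20.8%), higher than ovary at 7 and lower at 6 of 39 (7.96% and 14.4%), and higher than sepal at 6 and lower at 11 of 40 (12% and 23.5%). By single transcripts 16 were higher and 15 lower than leaf of 62 (23% and 30.7%), 13 and 18 against ovary of 62 (20.6% and 28.5%), and 17 and 27 against sepal of 68 (23.6% and 34.9%). The authors' deposited table calls 29 members different between stage 12 nectary and leaf (21.6% of all transcripts), 46 for ovary (34.4%) and 60 for sepal (39.9%). No test was run on these counts in 1 species. Transcripts of the ovule gene AGL11 summed to 358, 1988, 1464 and 1980 at nectary stages 6, 9, 12 and post secretory. They summed to 275 in leaf, 2835 in ovary and 231 in sepal. The part of ovule tissue in the nectary values was not tested.

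Over single transcripts, all 4 nectary stages lay above all 3 tissues for 8 of 81 members (13.8% of all transcripts) and below them for 13 (19.8%). On locus sums they lay above at 2 of 40 member loci, against 8.31% of all loci. The CWINV4 locus AT2G36190 had 6033, 6309, 10298 and 3097 at stages 6, 9, 12 and post secretory, against 106 in leaf, 525 in ovary and 32 in sepal. Its main transcript XM_016593154.1 had 10114 (SD 200) at stage 12, against 0 in leaf, 473 (SD 223) in ovary and 22 (SD 2) in sepal. Even after secretion the nectary sum stood well above every other tissue. The SUS4 locus AT3G43190 had 17440, 13677, 13141 and 4080 over the stages, against 1549 in leaf, 3249 in ovary and 3639 in sepal. Its post secretory sum lay just above sepal. The single transcript XM_016604254.1 was listed at 0 in leaf, where XM_016595402.1 of the same locus had 813 (SD 80), against 78 (SD 10) in stage 12 nectary.

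At 10 of 40 member loci all nectary stages lay below all 3 tissues, against 20.2% of all loci. TPS1 (AT1G78580) had 370 to 550 in nectary stages, against 898 in leaf, 806 in ovary and 956 in sepal. The phosphatase locus AT5G10100, which holds 1 transcript besides its member, had 16 to 76 in the nectary, against 214, 102 and 106 in the same tissues. The SUS1 locus AT5G20830, whose transcript XM_016627888.1 is the member most depleted in the stage 12 nectary, was listed at 0 in all 4 nectary stages, against 63, 103 and 672. Both fructokinase-like plastid protein loci were below as well, with 29 to 68 and 48 to 63. The member most enriched in the stage 12 nectary by single transcripts was XM_016579802.1, a variant of a probable sucrose-phosphate synthase with 170 (SD 19) and listed at 0 in the 3 tissues, yet its locus AT5G20280 had 1315 at stage 12, against 1415, 2031 and 1027. The phosphatase locus AT4G12430 reached 2335 at stage 12, against 1108, 545 and 755, but stage 6 lay at 986. Summed over the class, sucrose-phosphate synthase had 3444 in stage 12 nectary, 3338 in leaf, 3830 in ovary and 3843 in sepal.

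**Figure D4:**
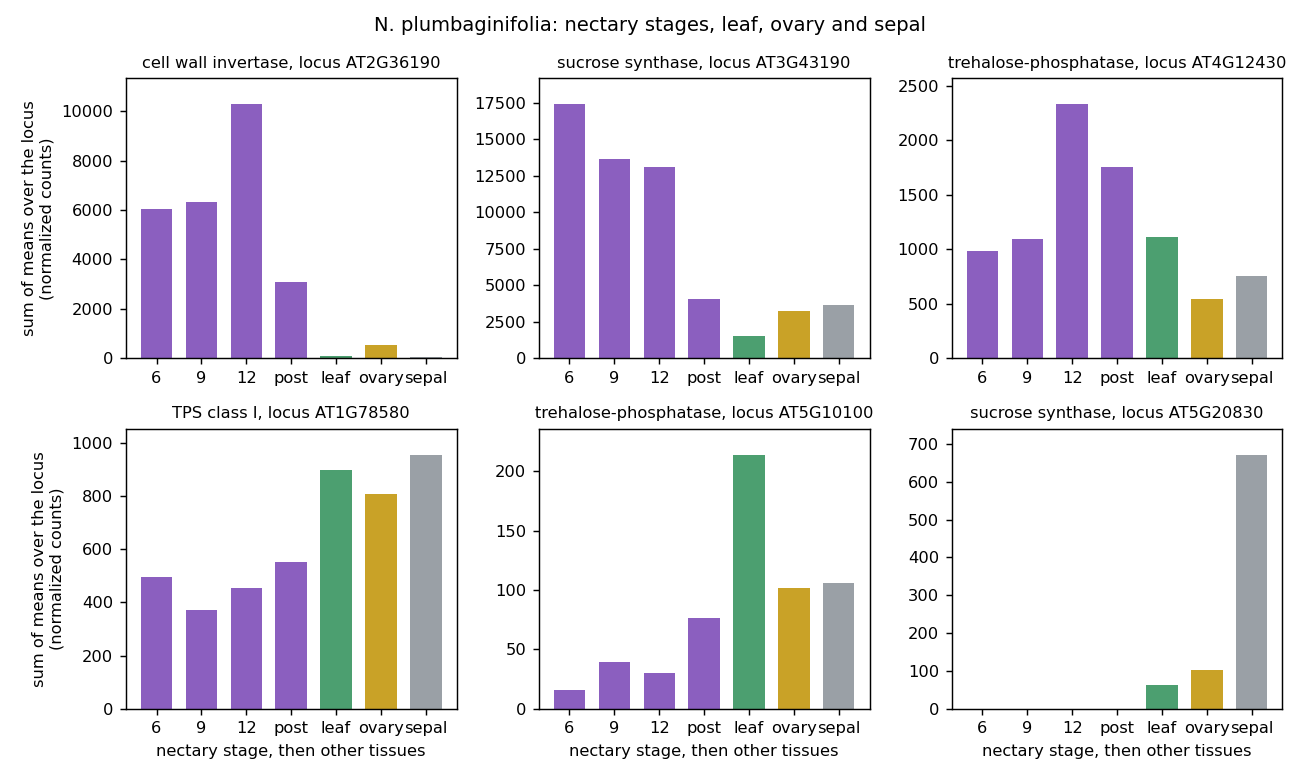
Sums of the authors' means over all transcripts of 6 Arabidopsis loci in N. plumbaginifolia, for nectary stages 6, 9, 12 and post secretory and then leaf, ovary and sepal, with bars from 0. AT2G36190 and AT3G43190 are above every other tissue at all stages, and AT1G78580, AT5G10100 and AT5G20830 are below.

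The order of the profiles at stage 12 differed by class. It is given as a description, since levels between species also carry how well their reads match N. tabacum. Sucrose synthase summed to 40163 for N. glauca, 25499 for N. rustica, 14359 for N. plumbaginifolia, 11169 for the joint profile and 10063 for N. benthamiana. The last 2 are near each other and far below the first. Cell wall invertase summed to 16385 for N. glauca, 14793 for the joint profile, 11234 for N. benthamiana, 10426 for N. plumbaginifolia and 5051 for N. rustica. The SD of its main transcript in N. glauca, 5274, is wider than the gaps to the joint profile and N. benthamiana. Neutral invertase summed to 6554 for N. benthamiana, 4937 for N. glauca, 4063 for the joint profile, 3361 for N. rustica and 1759 for N. plumbaginifolia. Sucrose-phosphate synthase spanned a narrower range, with 6687 in N. benthamiana and 3291 in the joint profile at the ends.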

How the data were processed

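The deposited table gives group means and SDs as a score, by the column names a normalized count, rounded to whole numbers by the authors. DESeq is named in the submitters' processing notes. The sources used here give no aligner, build or threshold for the yes or no columns of the authors' deposited calls. Protocol text names stems and fewer libraries, while the sample labels used here name sepal.

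The members and lists were chosen with earlier results of these data known. The split into 15 classes was refined after reading the descriptions. The test was limma 3.58.1 (R 4.3.3) on log2 of mean plus 1, with profile as block, trended moderated variances, 12 residual degrees of freedom and Benjamini-Hochberg adjustment over all 36627 transcripts or 12367 loci with a mean of at least 10. The authors' SDs do not enter it. Sums, counts and figures were made with Python 3.11.15, pandas 2.3.3 and matplotlib 3.10.9.

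Named members are the transcript with the highest mean of each class, every member past the threshold, the largest estimate of each step and the most enriched and depleted in nectary. Others were named after their values were seen, mostly as copies at the same loci. Alternatives changed the pseudocount, filter, scaling, variance trend, profiles and groups.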

Additional observations from a re-analysis of the deposited data

Results flagged for a closer look

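A value of 1 profile stood far from the other profiles in 5 of 96 series of 4 or 5 profiles examined, about as many as chance gives, 1 in 20. The log2 change of the ketohexokinase XM_016615665.1 between stage 9 and stage 6 was 0.73 in N. rustica, above the other 3 profiles that measure it, and that of the ketohexokinase sum was 0.75 there. The class II trehalose-phosphate synthase XM_016645412.1 changed by -0.87 after secretion in N. glauca, and the class II sum by -0.9, below the other profiles. The sucrose-phosphate synthase XM_016607051.1 changed by 0.92 between stage 12 and stage 9 in N. benthamiana, where the other 3 profiles that measure it were lower or near 0.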

How the results depend on the processing

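No paired analysis was possible because the table holds group means only, so that single libraries could not be paired, while the profile already stands as a block in the test used. Counts of members past the threshold, for stage 9 over 6, stage 12 over 6 and post secretory over 12, became 1, 4 and 4 higher and 12 lower in the last step when both identical copies were counted, where 0.186%, 3.71%, 2.3% and 3.08% of all transcripts passed. With a filter of 100, 2 rose and 8 fell after secretion (0.707% and 1.7% of all). Without the groups high in ovule markers 1 rose and 7 fell (0.449% and 0.847%). Without the 3 groups of widest spread 0 fell (0.00275% of all). As locus sums 4 rose and 2 fell at stage 12 (5.64% and 5.39% of all loci), and 2 rose and 9 fell after secretion (4.84% and 6.56%). Leaving out each profile gave 0 to 1 transcripts higher at stage 12 (0% to 0.205% of all). After secretion it gave 0 to 1 higher (0% to 0.752%) and 0 to 7 lower (0.00578% to 1.27%). For loci it gave 2 to 4 higher (1.6% to 4.4% of all loci) and 0 to 1 lower (1.21% to 4.6%) at stage 12. After secretion it gave 0 to 2 loci higher (0.772% to 6.54%) and 3 to 9 lower (1.21% to 8.98%). The loci that fell at stage 12 numbered 1 with a pseudocount of 10 (5.3% of all loci) or no variance trend (5.01%) and 0 without the groups high in ovule markers (3.18%). Without the widest groups 0 loci rose and 0 fell after secretion (0.0243% of all each way), and with both copies 2 rose at stage 9 (2.04%). The CWINV4, SUS4 and HXK1 loci lost their fall after secretion under the widest-spread setting alone of 13, with -4.53, -1.66 and -1.14.

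At 4-fold, pairs higher and lower were 5 and 2 of 311 for stage 9 over 6 (2.14% and 1.02% of all pairs), 9 and 1 of 309 for stage 12 over 9 (1.86% and 0.945%), 14 and 7 of 318 for stage 12 over 6 (4.02% and 1.9%) and 13 and 51 of 319 after secretion (4.47% and 3.25%). At that fold 8 of 62 members were lower than ovary (18.2% of all) and 16 of 68 lower than sepal (25.3%). With a higher mean of at least 10, pairs were 43 and 37 of 421 for stage 9 over 6 (8.78% and 7.15%) and 71 and 29 of 428 for stage 12 over 9 (9.05% and 5.67%). After secretion 50 of 439 were higher and 122 lower (13.1% and 10.5%). So filtered, 31 and 25 of 94 members stood above and below leaf (27.4% and 31.8%), 27 of 88 above ovary (24.4%) and 31 of 94 above sepal (27.4%). Locus sums gave 7 and 5 against leaf, 7 and 6 against ovary and 6 and 11 against sepal.

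Without its most abundant transcript the sucrose synthase sum turned to 0.22 at stage 12 over 6 and became -0.07 after secretion, the class I trehalose-phosphate synthase sum turned to -0.4 at stage 12 over 6, and the sucrose-phosphatase sum became -0.68 after secretion. Also after secretion, cell wall invertase became -2.36, vacuolar invertase -0.16, hexokinase -0.52 and sucrose-phosphate synthase -0.58. The cause of these changes was not tested.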
